A study of Mus musculus with 3 samples.

Results

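In normal mouse thymocytes, the T cell precursors that mature in the thymus, 10 enzyme genes that finish or branch the sugar chains of glycoproteins and glycolipids were examined. They were chosen by name: the sialyltransferase genes St3gal1, St3gal2, St3gal4, St3gal6, St6gal1, St8sia1, St8sia4 and St8sia6, and the branching enzyme genes Gcnt1 and Mgat5. All 10 had at least 1 Affymetrix probe set, a group of short probes read as 1 value, whose annotation named that gene alone. They are 10 of the 19938 genes named in this way. Thymocytes came from 3 wild-type mice of a mixed FVB and C57BL6 background, numbered 92, 103 and 106 in the labels, and 1 array was run per mouse. The arrays belong to a study of stage 3 lymphomas in mice that its title names tPTEN-/-; the lymphomas were not analysed here, so no groups were compared. Per mouse the labels record an RNA amount of 0.3 µg and an integrity number of 3, which is low, and neither sex nor age. Titles and genotypes name the mice wild type, whereas the disease entry names lymphoma.

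Sialic acid is a charged sugar that sialyltransferases place at the outer ends of glycan chains, using an activated donor made in the nucleus and carried into the Golgi. The enzymes differ in the chain they accept and in the position of the new bond. On O-glycans, which are built on serine or threonine, Gcnt1 starts the core 2 branch and St3gal1 caps the unbranched core 1 chain, so that both can draw on the same substrate. In the thymus, cortical thymocytes are known for uncapped core 1 chains that bind peanut agglutinin, and mature medullary thymocytes for capped ones. Mgat5 branches N-glycans, built on asparagine, and St8sia1 acts on gangliosides, which are glycolipids; the genes are therefore wider in function than O-glycan branching.

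Levels were measured on the log2 scale, where 1 unit is a factor of 2, and a gene was counted as above background when it exceeded, on each of the 3 arrays, the 95th percentile of 1203 olfactory, vomeronasal and trace amine receptor genes. That threshold lay at 5.91, 6.10 and 6.001 in mice 92, 103 and 106. Probes differ in affinity, so a level is compared only with the same gene in another mouse, or with the threshold. Of the 10 genes, 9 were above background on all arrays, against 61.8% of all named genes. All named genes include the 1203 receptor genes, most of which fall below the threshold by its definition. This and every later share of named genes is therefore lower than it would be without them. Gcnt1 was the exception, below the threshold on every array. At the stricter 99th percentile, which 46.8% of named genes passed, 8 of the 10 genes passed and St8sia6 did not; at the 90th percentile, which 69.3% passed, it was again 9. The 3 arrays limit the precision of every value.

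**Figure D1:**
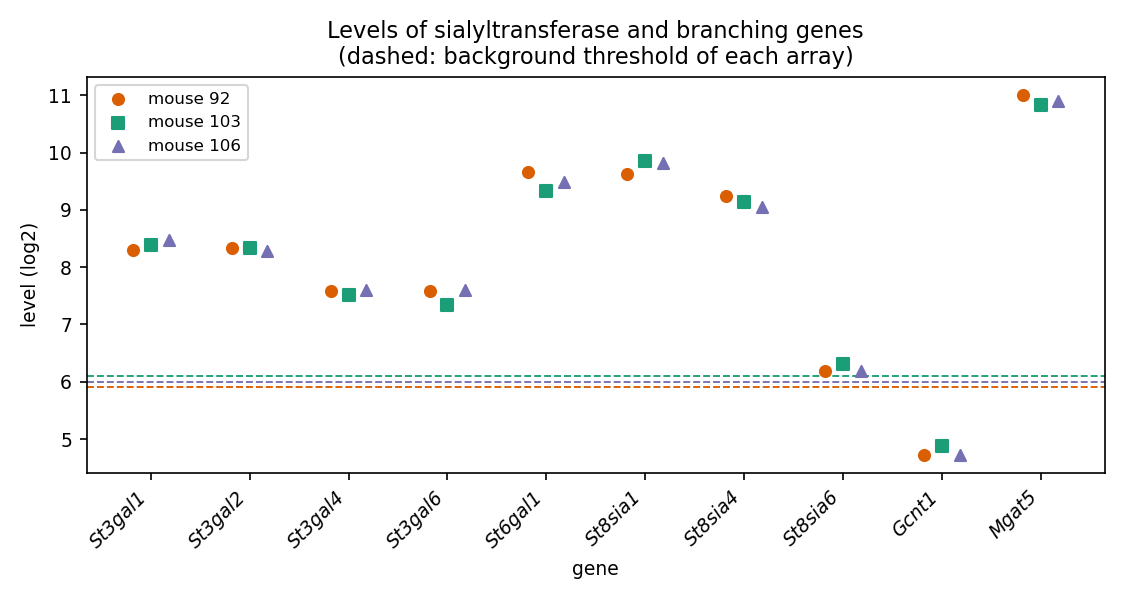
Level (log2, vertical axis) of the 10 genes in mouse 92 (circles), mouse 103 (squares) and mouse 106 (triangles), each point 1 array; dashed lines are the background thresholds of the arrays, 5.91, 6.10 and 6.001. Gcnt1 lies below all thresholds, St8sia6 just above them, and the other genes lie at 7.34 or higher.

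Whether the promoters share sequence features was described with RefSeq sequence of build GRCm38.p6, read as the 250 bases before each annotated start. RefSeq windows matched 8 of the 10 genes, with 13 starts; St3gal1 and St3gal2 are named only. Windows with a GC content of at least 50% and an observed-to-expected ratio of CpG of at least 0.6 were counted as rich in CpG, the dinucleotide C followed by G. Of 7556 named genes with a CpG-rich window, 84.7% were above background, against 42.2% of 8058 genes with none. The receptor genes that set the threshold were not removed from these classes. Their split between the classes was not counted, and their part in this difference was not tested. St3gal4, St3gal6, St8sia4 and St8sia6 had a CpG-rich window, and all 4 were above background. Mgat5, St6gal1, St8sia1 and Gcnt1 had none, and 3 of these 4 were above background. The windows below show the range: St8sia4 and St8sia6 are CpG-rich, Mgat5 is above background without passing the CpG limit, and none of the 3 starts of Gcnt1 passes it. Capitals mark CpG.
St8sia4, chr1:95667595-95667844, minus strand: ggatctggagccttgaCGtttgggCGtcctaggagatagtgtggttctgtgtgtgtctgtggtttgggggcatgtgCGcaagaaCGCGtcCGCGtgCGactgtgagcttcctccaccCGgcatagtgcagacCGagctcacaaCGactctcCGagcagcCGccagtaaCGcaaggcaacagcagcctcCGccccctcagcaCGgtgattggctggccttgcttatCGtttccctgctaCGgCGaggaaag
St8sia6, chr2:13793521-13793770, minus strand: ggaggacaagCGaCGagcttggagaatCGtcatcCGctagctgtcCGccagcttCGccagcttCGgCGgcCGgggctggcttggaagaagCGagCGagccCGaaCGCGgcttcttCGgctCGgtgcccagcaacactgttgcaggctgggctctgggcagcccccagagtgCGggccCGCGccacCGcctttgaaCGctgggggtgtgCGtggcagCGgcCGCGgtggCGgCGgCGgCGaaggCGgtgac
Mgat5, chr1:127204736-127204985, plus strand: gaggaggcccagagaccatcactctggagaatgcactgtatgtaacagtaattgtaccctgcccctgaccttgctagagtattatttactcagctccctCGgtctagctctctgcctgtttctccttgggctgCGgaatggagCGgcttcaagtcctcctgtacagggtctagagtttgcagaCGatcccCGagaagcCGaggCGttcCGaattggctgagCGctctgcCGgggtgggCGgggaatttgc
Gcnt1 first start, chr19:17372845-17373094, minus strand: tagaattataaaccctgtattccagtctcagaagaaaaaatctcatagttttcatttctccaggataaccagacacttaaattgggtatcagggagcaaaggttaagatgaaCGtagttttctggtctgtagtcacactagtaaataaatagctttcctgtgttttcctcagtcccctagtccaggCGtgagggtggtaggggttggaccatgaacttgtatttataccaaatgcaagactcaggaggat
Gcnt1 second start, chr19:17356668-17356917, minus strand: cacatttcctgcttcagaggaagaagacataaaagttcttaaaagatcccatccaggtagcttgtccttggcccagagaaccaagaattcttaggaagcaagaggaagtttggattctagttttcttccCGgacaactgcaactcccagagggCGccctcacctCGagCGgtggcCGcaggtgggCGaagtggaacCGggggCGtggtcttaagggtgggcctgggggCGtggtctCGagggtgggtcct
Gcnt1 last start, chr19:17339506-17339755, minus strand: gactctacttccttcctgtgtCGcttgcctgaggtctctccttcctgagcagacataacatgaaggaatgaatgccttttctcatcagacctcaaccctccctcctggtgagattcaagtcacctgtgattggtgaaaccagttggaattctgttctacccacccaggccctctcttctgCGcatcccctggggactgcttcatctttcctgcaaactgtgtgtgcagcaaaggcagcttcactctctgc

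St8sia6 had the most CpG of the 13 windows, 30, with an observed-to-expected ratio of 0.97. The St8sia4 window held 19 and the Mgat5 window 11, with a ratio of 0.56, just under the limit. The windows at the 3 Gcnt1 starts, in their order along the gene, held 2, 10 and 2 CpG. A GC box, searched as GGGCGG on both strands, was found in 5 of the 13 windows, those of Mgat5, St3gal4, St8sia1, St8sia4 and 1 of the starts of St3gal6, against 32.7% of all 32851 windows; the motif holds a CpG itself. The RUNX letters TGTGGT, searched on both strands, occurred in 2 of the 13, those of St8sia4 and of another start of St3gal6, against 14.0% of all windows. The E-box letters CAGCTG (13.0% of all windows) and the ETS letters CCGGAAGT (2.88%), searched on both strands, occurred in 0 of the 13. TATAAA, searched on the strand of the gene, occurred in 1, that of the first Gcnt1 start, against 7.59% of all windows. There the letters lay at the upstream end of the window, not 40 to 20 bases before the start, the place of a TATA box. These counts describe letters and not binding.

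The thymocyte label was checked against marker genes. Above background were 7 of 7 T cell receptor genes, 9 of 9 double-positive thymocyte markers and 7 of 7 single-positive ones. The share of all named genes was 61.8%. Markers of other cells passed as well. Early progenitor markers did so in 8 of 8 cases, macrophage and dendritic cell markers in 10 of 11 and erythroid markers in 5 of 6. Thymic epithelial markers passed in 6 of 8 cases, as did cytotoxic, NK and gamma-delta T markers. B cell markers passed in 7 of 11 cases, neutrophil markers in 6 of 11 and fibroblast and endothelial markers in 4 of 7. These counts therefore do not show a pure population. The co-receptor gene Cd8a was at 13.24, 13.18 and 13.22 in mice 92, 103 and 106, Cd4 at 12.15, 12.03 and 12.11, Cd3e at 12.11, 11.96 and 12.09, and the recombinase gene Rag1 at 13.81, 13.38 and 13.58. Mouse 92 stood apart from the others. It alone had high Y-linked transcripts, with Eif2s3y at 10.42 against 3.59 and 3.55 in mice 103 and 106. Uty was at 9.74 against 3.91 and 4.13, and Kdm5d at 9.69 against 5.19 and 4.80. The sex-linked gene Xist had the opposite order, at 5.30 against 11.85 and 11.67. Mouse 92 thus had the pattern of a male, and mice 103 and 106 that of females. Mouse 92 was the lowest for all 11 measured B cell markers, all 11 neutrophil markers and 7 of 8 early progenitor markers. It was also lowest for 7 of 8 cytotoxic, NK and gamma-delta T markers. The same held for 7 of 11 macrophage and dendritic cell markers and 4 of 6 erythroid markers. It was the highest for 7 of 9 double-positive markers, 6 of 7 T cell receptor genes and 4 of 7 single-positive markers. Of all genes tested, 35.1% were lowest and 37.4% highest in mouse 92. In bulk RNA, fewer cells of a type and less RNA per cell cannot be told apart. The part of sex in any difference between mouse 92 and the other mice, here or below, was not tested.

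The first question was which sialyltransferase genes were transcribed, and how evenly between mice; the genes follow by the bond their enzymes make. St3gal1 and St3gal2, which add sialic acid to the galactose of core 1 O-glycans, were both well above the threshold. St3gal1 was at 8.31, 8.40 and 8.48 in mice 92, 103 and 106 (mean 8.39 ± 0.09, SD, n = 3). Mouse 92 was lowest and the highest mouse was 1.13-fold above it. This value is the mean of 2 probe sets, which did not order the mice alike. One was at 9.02, 8.99 and 9.28, highest in mouse 106, and the other at 7.59, 7.80 and 7.68, highest in mouse 103. St3gal2 was at 8.33, 8.34 and 8.27 (8.31 ± 0.03, SD, n = 3), the narrowest range of the 10 genes at 1.05-fold.

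St3gal4 and St3gal6 cap lactosamine chains and contribute to the ligands that selectins bind on leukocytes. St3gal4 was at 7.59, 7.52 and 7.60 in mice 92, 103 and 106 (7.57 ± 0.04, SD, n = 3), a range of 1.06-fold. St3gal6 was at 7.59, 7.34 and 7.60 (7.51 ± 0.15, SD, n = 3), so that mouse 103 lay below a pair of nearly equal values, with a range of 1.20-fold. In both genes mouse 103 was lowest, and it stayed lowest after quantile normalisation and after centring each array on its median.

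St6gal1 makes the other main linkage of sialic acid to lactosamine, the one that the B cell lectin CD22 recognises, and is known for strong transcription in B cells. St6gal1 was at 9.66, 9.33 and 9.48 in mice 92, 103 and 106 (9.49 ± 0.16, SD, n = 3). As deposited, its range of 1.26-fold was the widest of the 10 genes, and mouse 92 was the highest. For the B cell markers the mean log2 level was 6.36, 7.41 and 7.15 in the same mice, the summed linear level 1122, 2368 and 1878, and all 11 were lowest in mouse 92. Among the defining B cell genes, Cd79a was at 7.12, 8.26 and 8.44, Cd79b at 8.47, 9.56 and 8.85, and Ms4a1 at 6.60, 7.60 and 7.33; Ebf1 was below the threshold on every array. The part of B cells in the St6gal1 level was not tested. The St6gal1 range on the log2 scale was 0.33 as deposited, 0.48 (1.39-fold) after centring on the median and 0.24 after quantile normalisation. With quantile normalisation the ranges of St8sia1, at 0.34, and St3gal6, at 0.32, were wider than that of St6gal1. For St6gal1 mouse 92 was highest and mouse 103 lowest under each of the 3 scalings.

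The enzymes that join sialic acid to sialic acid covered a wide span of distances from the threshold. St8sia1, the GD3 ganglioside synthase, was at 9.62, 9.85 and 9.82 (9.76 ± 0.13, SD, n = 3), lowest in mouse 92 by a range of 1.18-fold. Several marker lists were also lowest in mouse 92, as was the median of all named genes, at 6.71, 6.86 and 6.76. By their means, the T cell receptor, double-positive and single-positive lists were highest in mouse 92 instead, and the fibroblast and endothelial list was lowest in mouse 106. Thymic epithelial markers had a mean log2 level of 6.76, 7.07 and 6.83, with 4 of 8 lowest in mouse 92 and 4 of 8 in mouse 106. Early progenitor markers had a mean log2 level of 7.53, 8.10 and 8.09, gamma-delta T, NK and cytotoxic markers 6.89, 7.43 and 7.15, macrophage and dendritic cell markers 7.25, 7.81 and 7.45, and erythroid markers 6.56, 7.30 and 7.08. The neutrophil markers had a mean log2 level of 5.96, 7.80 and 7.43, a summed linear level of 799, 3692 and 3035, and Cxcr2 below the threshold on every array. The defining neutrophil genes S100a8, S100a9, Ngp, Ltf and Lcn2 lay between 6.18 and 6.93 in mouse 92 and between 8.13 and 9.72 in the other mice. The part of any of these cells, or of sex, in the St8sia1 difference was not tested. St8sia4, a polysialyltransferase that acts on NCAM, neuropilin-2 and CCR7, was at 9.25, 9.13 and 9.04 (9.14 ± 0.10, SD, n = 3), a range of 1.15-fold. St8sia6, which forms short disialic acid ends, chiefly on O-glycans, was at 6.18, 6.32 and 6.19 (6.23 ± 0.08, SD, n = 3). It exceeded the threshold by 0.27, 0.22 and 0.19 in mice 92, 103 and 106, so it was detected narrowly on every array.

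Of the branching enzyme genes, 1 was above background and 1 was not. Mgat5, which adds the branch of N-glycans that galectins bind, was at 11.01, 10.83 and 10.89 (10.91 ± 0.09, SD, n = 3), between 4.73 and 5.09 above the threshold, and the range was 1.13-fold. Gcnt1, the core 2 branching enzyme, was at 4.72, 4.87 and 4.72 (4.77 ± 0.09, SD, n = 3), between 1.19 and 1.28 below the threshold. It was measured by 1 probe set, so that a weakly binding probe set and a low transcript level cannot be told apart, and its level is only a bound. The same held for the other core 2 genes on the array, Gcnt3 at 5.02, 5.15 and 5.17 and Gcnt4 at 4.86, 4.98 and 5.003, both not above background on any array.

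**Figure D2:**
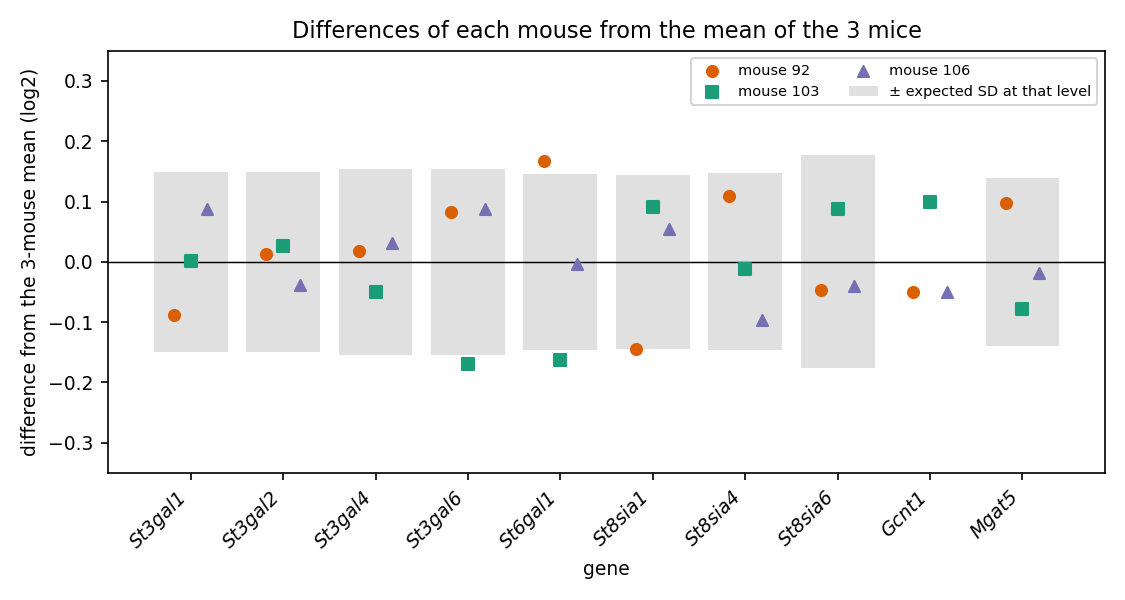
Difference of each mouse from the mean of the 3 mice (log2, vertical axis) for the 10 genes, with mouse 92 as circles, mouse 103 as squares and mouse 106 as triangles; grey bars span plus and minus the SD that limma expects at that level, and Gcnt1, below background and not tested, has none. Only St6gal1 in mice 92 and 103, St3gal6 in mouse 103 and St8sia1 in mouse 92 reach or nearly reach the edge of their bars, and the widest range, that of St6gal1, is 1.26-fold.

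The second question was whether any of the genes differed between mice by more than genes of similar level do. Variance between mice was tested with limma, which compares a gene's variance with the variance expected at its level and adjusts over all 13316 genes above background on at least 1 array. Of the 9 genes tested, 0 passed an adjusted p of 0.05, where 0.225% of all genes tested passed. At an unadjusted p of 0.05 it was also 0 of 9, where 4.85% of all genes passed. St6gal1 had the smallest p (limma, unadjusted p = 0.320, adjusted p = 0.996), followed by St3gal6 (unadjusted p = 0.432). For 8 of the 9 genes the SD was below the expected one, St6gal1 being the exception at 1.13 times; the same held for 60.8% of all genes tested. The median range was 0.18 over the 10 genes and 0.25 over all genes tested, on the log2 scale. The 30 genes that passed had a range of at least 2.73-fold, so that smaller differences between mice are not shown to be absent for any of the 9 genes.

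**Figure D3:**
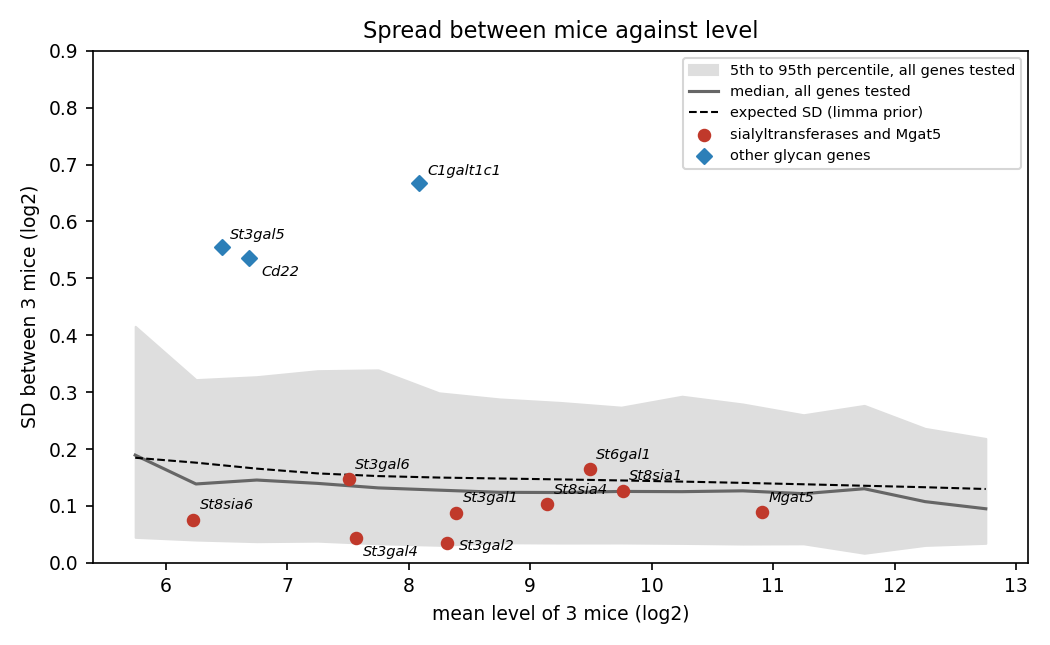
SD between the 3 mice (log2, vertical axis) against mean level (log2, horizontal axis); the grey band spans the 5th to 95th percentile of all genes tested, the solid line is their median and the dashed line the SD expected by limma. The 9 genes above background (red circles) lie inside the band, with SDs of 0.03 to 0.16. C1galt1c1, St3gal5 and Cd22 (blue diamonds) lie above it. These have the widest ranges of the other glycan genes followed below, so their place follows from that choice. The rest of those genes are not drawn.

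The order of the mice within a gene depended on how the arrays were scaled. The median of all named genes was 6.71, 6.86 and 6.76 in mice 92, 103 and 106, and centring the arrays on it moved mouse 103 down relative to the others. The same mouse was lowest under all 3 scalings (as deposited, quantile, median) for 5 of the 10 genes, St3gal4, St3gal6, St6gal1, St8sia1 and Mgat5. Both the lowest and the highest mouse stayed the same for 2 of them, St6gal1 and Mgat5. The size of the range still changed. For Mgat5 it was 0.18 on the log2 scale as deposited, 0.04 after quantile normalisation and 0.33 after centring on the median. For St3gal1, St3gal2, St8sia4, St8sia6 and Gcnt1 the lowest mouse changed.

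The rest of the glycan machinery was followed with 10 lists of genes with a known part in the same chains. Of 108 genes listed, 104 had a level and 72 of these, 69.2%, were above background on all arrays, against 61.8% of all named genes. None of the 75 tested varied between mice in limma after adjustment (0 of 75, against 0.225% of all genes tested), and 8, or 10.7%, had an unadjusted p under 0.05, against 4.85% of all genes tested: St3gal5, St6galnac3, Neu3, C1galt1c1, Mgat2, Ugcg, B4galnt1 and Cd22.

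**Figure D4:**
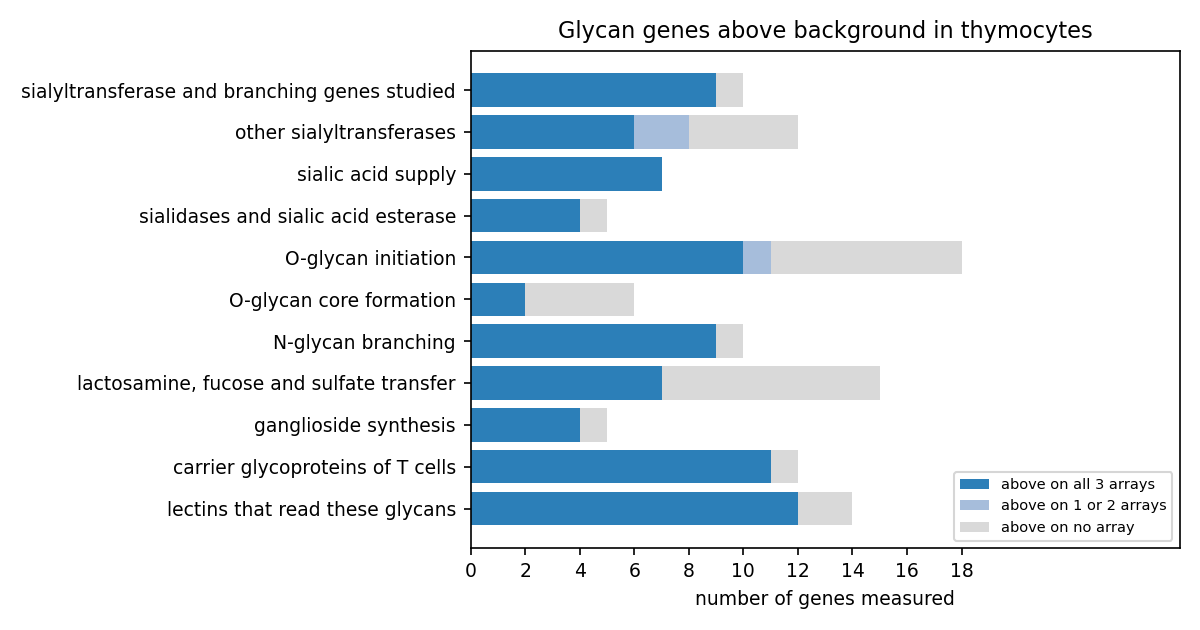
Number of genes measured (horizontal axis) in the set of 10 genes and in each of the 10 lists, split by the number of arrays on which the gene exceeded background. All 7 genes of sialic acid supply are above background on the 3 arrays, while 4 of 6 genes of O-glycan core formation are on none.

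Genes that make and deliver the sialic acid donor were all above background, 7 of 7. Their widest ranges were those of Slc35a1, the transporter of the donor into the Golgi, at 8.42, 7.99 and 7.93 in mice 92, 103 and 106, and Nanp, a phosphatase of the synthesis, at 8.54, 8.14 and 8.33. Mouse 92 was highest in both. Of the sialidases and the sialic acid esterase, which remove or trim sialic acid, 4 of 5 were above background and Neu2 was not. Neu3, the plasma membrane sialidase that prefers gangliosides, was at 8.04, 8.69 and 8.60, a range of 1.57-fold, and the esterase gene Siae at 8.61, 8.42 and 8.35.

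Other sialyltransferases were above background in 6 of 12 cases, 2 more on some arrays and 4 on none. St6galnac3, which acts on O-glycans and gangliosides, was at 7.02, 6.95 and 6.34, lowest in mouse 106, and St6galnac4, which acts on sialylated core 1 chains, at 6.76, 7.30 and 7.11, lowest in mouse 92. St3gal5 makes GM3, the ganglioside that St8sia1 extends, and is named because of its range, after its values were seen. It was at 5.84, 6.90 and 6.65, with mouse 92 below its threshold of 5.91, so that only 2 of the 3 arrays gave a level above background (limma, unadjusted p = 0.00320, adjusted p = 0.365). It was lowest in mouse 92, as was St8sia1. By their means, the B cell, neutrophil, early progenitor, cytotoxic, macrophage, erythroid and thymic epithelial lists were lowest there too. The median of all named genes was lowest in mouse 92 as well. The T cell receptor, double-positive and single-positive lists were highest in mouse 92 by their means, and the fibroblast and endothelial list was lowest in mouse 106. The part of these cells, of sex or of the scaling in the St3gal5 difference was not tested. Within ganglioside synthesis 4 of 5 genes passed and B4galt6 did not. Ugcg, which makes the glucosylceramide from which these lipids start, was at 10.59, 9.996 and 10.10, highest in mouse 92, and B4galnt1, which leads on to the complex gangliosides, at 8.82, 8.89 and 9.38, highest in mouse 106.

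O-glycan initiation by the Galnt family was above background for 10 of 18 genes, 1 more on 1 array. Galnt16 was at 6.30, 6.53 and 6.14 and Galnt2 at 9.66, 9.59 and 9.29, the widest ranges of those that passed, at 1.31-fold and 1.29-fold. Core formation was above background for 2 of 6 genes, both needed for core 1. C1galt1, the core 1 synthase, was at 11.04, 10.55 and 10.80, and C1galt1c1, its chaperone Cosmc on chromosome X, at 8.74, 7.40 and 8.12. Both were highest in mouse 92 and lowest in mouse 103. The part of sex in these ranges was not tested. The C1galt1c1 range of 2.52-fold did not pass (limma, adjusted p = 0.0944). Nor did it pass without mouse 92 (limma, adjusted p = 0.0590) or without mouse 103 (limma, adjusted p = 0.568). It passed without mouse 106 (limma, adjusted p = 5.75e-05), which leaves only the highest and the lowest mouse for this gene. In that setting 0.636% of all genes tested passed, against 0.225% with all mice. Gcnt3, Gcnt4, B3gnt3 and B3gnt6, the other genes of this list, were not above background.

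On N-glycans, 9 of 10 genes were above background and Mgat4c was not. Mgat2, which starts the second antenna, was at 9.14, 8.64 and 8.60, and Mgat4a, which adds a further branch, at 8.53, 8.07 and 8.45, both highest in mouse 92. Of 15 measured genes that extend lactosamine or add fucose or sulfate, 7 were above background. Chst2, a sulfotransferase of selectin ligands, was at 6.91, 7.28 and 7.06 and the galactosyltransferase gene B4galt3 at 8.30, 8.09 and 7.94, a range of 1.29-fold and 1.28-fold.

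Carrier glycoproteins of T cells were above background for 11 of 12 genes, with Nrp2 the exception. Cd44, the hyaluronan receptor, was at 6.84, 7.37 and 7.14 and Ptprc, which encodes CD45, at 12.70, 12.33 and 12.63. Lectins that read these glycans passed for 12 of 14 genes; Siglece and Mag did not. Cd22, the B cell lectin for the product of St6gal1, was at 6.07, 7.08 and 6.90, a range of 2.01-fold with mouse 92 lowest (limma, adjusted p = 0.365), and is itself one of the B cell markers that were all lowest there. Lgals8, a galectin, was at 10.23, 9.87 and 9.79, highest in mouse 92.

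**Figure D5:**
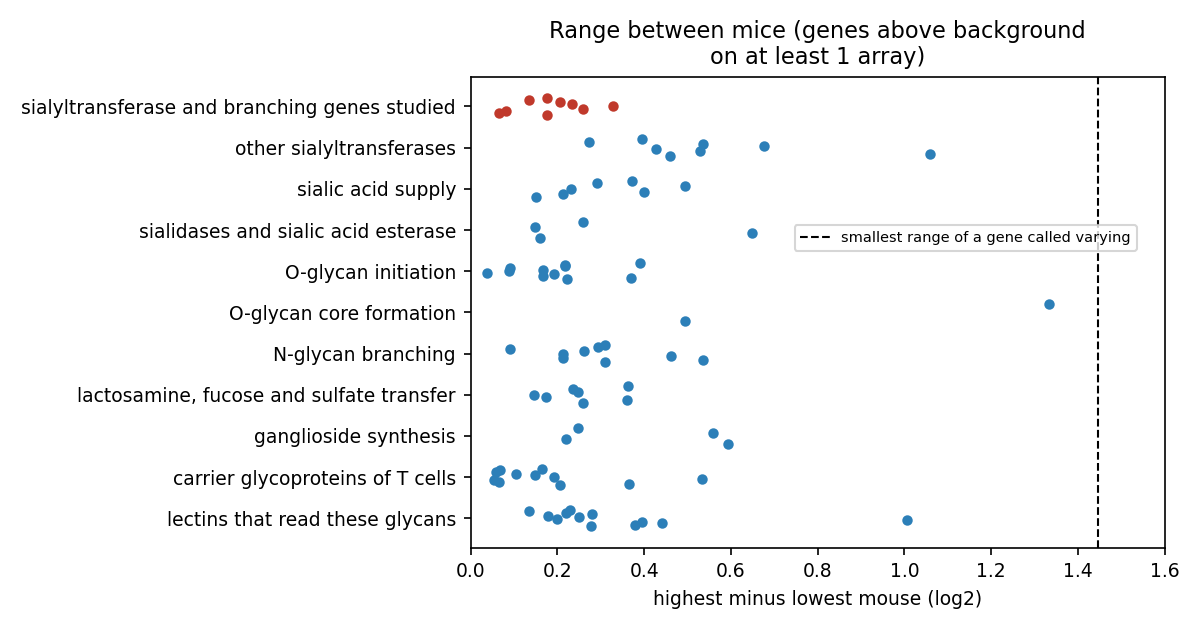
Highest minus lowest mouse (log2, horizontal axis) for each gene above background on at least 1 array, by list, with the 10 chosen genes that qualify in red; the dashed line at 1.45 is the smallest range among genes that passed the limma test. The red points end at 0.33, and no point of the lists reaches the line, C1galt1c1 coming nearest at 1.33.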

How the data were processed

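Affymetrix MoGene 1.0 ST arrays were run on biotin-labelled, Trizol-extracted thymocyte RNA, 1 array for each of 3 wild-type mice, per the labels' protocols. The deposited table holds 35557 probe sets as log2 levels that the authors made with Affymetrix Expression Console, per the submitters' processing notes; the sources used here give neither its version nor its background correction, summarisation and normalisation. The log2 scale was inferred from the range of 1.76 to 14.96, with array medians of 6.70 to 6.72. Depth does not apply to arrays; their number limits precision.

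The platform annotation gave 1 symbol for 21789 probe sets, several for 1621 and none for 12147; 0 symbols differed from RefSeq. Probe sets of a gene were averaged. The variance test used limma 3.58.1 in R 4.3.3, with an intercept and a trended prior that is not robust. It was a one-sided F ratio of residual to prior variance (prior degrees of freedom 10.4), adjusted by Benjamini-Hochberg. The test was also run on data simulated from the prior fitted here. Such data follow its model by construction, so they cannot show that the model holds for these arrays. P-values measure only the spread between these samples, which may be technical. From each pathway list, the 2 genes with the widest range among those above background on all arrays, any that passed the test and, up to 5, those not above background were named. The genes, lists and rules were chosen with earlier results of these data known. Alternatives changed the background, the filter, the prior and the scaling, or left out a mouse.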

Additional observations from a re-analysis of the deposited data

How the results depend on the processing

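The count of the 10 genes above background was 9 under every alternative for it except the 99th percentile, where it was 8. The count varying between mice was 0 under each of the 10 alternatives run for that test. With a robust prior of per-gene degrees of freedom 0 of all 13316 genes passed, so the 0 there says nothing about the 10 genes. Over the 10 alternatives the smallest unadjusted p of any of the genes was 0.148 and the smallest adjusted p 0.987 (limma). Genes of the pathway lists above background numbered 54 to 81 of 104, against 72. Those varying numbered 0, but 1 with a robust prior whose degrees of freedom were those of most genes, and 1 without mouse 106. The gene was C1galt1c1 both times (limma, adjusted p = 0.0339 with that prior and 5.75e-05 without mouse 106). Of all genes tested, 0.33% passed with that prior and 0.636% without mouse 106, against 0.225% in the main setting. C1galt1c1 did not pass without mouse 92 (limma, adjusted p = 0.0590) or without mouse 103 (limma, adjusted p = 0.568). All alternatives were run. A low RNA integrity, 1 probe set for most genes and an array normalisation that is not described limit these values.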
